A study of Mus musculus with 8 samples.

Results

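Gene deserts are long stretches of a chromosome without a protein-coding gene, and accessible chromatin inside them usually belongs to distant enhancers, to boundary elements or to starts of non-coding transcripts. Gene-desert regions were taken here as the accessible regions of the 2 deposited comparison tables whose centre lay outside every protein-coding gene span and more than 50 kb from the nearest one, by the RefSeq annotation of GRCm38 with its 21900 protein-coding genes. The rule uses position alone and no measured value. It selected 10922 of 108949 distinct regions: 5246 of 54239 in the EBF1-dTAG_C table (9.67%) and 5717 of 55193 in the EBF1-dTAG_N table (10.4%). Of these, 4452 lay 50 to 100 kb, 3798 lay 100 to 300 kb and 2672 lay over 300 kb from the nearest protein-coding gene.

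The data are ATAC-seq profiles, in which the Tn5 transposase cuts and tags open DNA, from mouse pro-B cells transformed with A-MuLV, the Abelson leukaemia virus. EBF1, a transcription factor required for B cell specification, was replaced in these cells by an introduced modified gene, in a line named EBF1-dTAG_C and a line named EBF1-dTAG_N. The dTAG is a small domain fused to a protein so that dTAG-13, a degrader compound, can send the fusion to the proteasome. Cells of each line received 0.5 uM dTAG-13 or the solvent DMSO for 6 h, with 2 libraries per line and treatment (8 libraries in 4 groups), which the series describes as biological replicates. All groups therefore share the viral transformation, and both DMSO groups already carry tagged EBF1 in place of the endogenous protein. The sample titles call the DMSO libraries 0 h and their treatment label says 6 h of DMSO. The files hold no measurement of the EBF1 protein, so its loss could not be checked in them.

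Where a factor that opens distant enhancers is removed, accessibility at those enhancers can fall within hours, while boundary elements bound by CTCF are known to be open in most cell types. In B lineage cells the best known gene deserts are the variable-segment arrays of the immunoglobulin loci, whose segments are not annotated as protein-coding genes, and the flanks of factor genes such as Foxo1, Runx1 and Myc. The label of a desert holds only for protein-coding genes. Among the gene-desert regions of EBF1-dTAG_C, 1487 lay inside the span of another kind of gene, 1004 of them in a lncRNA (long non-coding RNA) gene, and 1301 were over 50 kb from every annotated gene of any kind. The EBF1-dTAG_N table held 1610, 1050 and 1485 such regions.

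The regions that coincide with a start of a lncRNA gene are the ones whose sequence can be shown, from RefSeq's start windows of GRCm38 (250 bases before to 50 after a start). Such a window overlapped 90 gene-desert regions of EBF1-dTAG_C and 86 of EBF1-dTAG_N, at 115 different windows. Each window was searched on both strands for 9 short motifs: the EBF1 core CCCNNGGG, a longer EBF1 form that adds a T before and an A after this core, ETS GAGGAAGT, RUNX TGTGGT, E-box CAGCTG, STAT TTCNNNGAA, FOXO TGTTTAC, an IRF form (GAAA, 2 free bases, GAAA) and a CTCF form (CCA, 2 free bases, AG, 2 free bases, GGC). The 6 windows below show 2 starts that fell in EBF1-dTAG_N and hold an EBF1 core (Gm14321 and Gm5122), 2 that rose there and hold one (Gm26901 and Gm36223), and 2 that fell in both lines and hold none (Gm32633 and Gm40900). Sequences run 5′ to 3′ on the strand of the gene, and capitals mark every match to one of the 9 motifs. Gm14321 is at chr2:167777241-167777540 on the plus strand, Gm5122 at chr9:61016819-61017118 on the plus strand and Gm26901 at chr1:7398047-7398346 on the minus strand. Gm36223 is at chr5:111509028-111509327, Gm32633 at chr7:64001654-64001953 and Gm40900 at chr12:115703580-115703879, all on the plus strand.
Gm14321: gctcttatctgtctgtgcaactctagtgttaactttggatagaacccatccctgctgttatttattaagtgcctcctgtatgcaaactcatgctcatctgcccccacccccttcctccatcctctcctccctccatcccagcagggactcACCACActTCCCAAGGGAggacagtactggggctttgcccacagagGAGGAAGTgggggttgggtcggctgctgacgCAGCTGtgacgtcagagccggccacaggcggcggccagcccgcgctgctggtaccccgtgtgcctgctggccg
Gm5122: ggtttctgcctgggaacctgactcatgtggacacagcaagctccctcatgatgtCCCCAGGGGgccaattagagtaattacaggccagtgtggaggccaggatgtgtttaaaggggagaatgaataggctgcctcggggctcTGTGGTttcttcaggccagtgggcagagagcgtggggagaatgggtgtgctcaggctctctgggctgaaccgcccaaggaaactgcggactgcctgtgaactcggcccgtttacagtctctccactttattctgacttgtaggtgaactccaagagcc
Gm26901: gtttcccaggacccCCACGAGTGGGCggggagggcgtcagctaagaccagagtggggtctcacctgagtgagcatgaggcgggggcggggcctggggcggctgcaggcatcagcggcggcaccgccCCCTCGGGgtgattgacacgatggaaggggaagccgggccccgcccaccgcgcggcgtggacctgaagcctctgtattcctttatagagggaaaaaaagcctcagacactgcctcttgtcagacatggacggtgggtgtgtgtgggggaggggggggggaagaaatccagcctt
Gm36223: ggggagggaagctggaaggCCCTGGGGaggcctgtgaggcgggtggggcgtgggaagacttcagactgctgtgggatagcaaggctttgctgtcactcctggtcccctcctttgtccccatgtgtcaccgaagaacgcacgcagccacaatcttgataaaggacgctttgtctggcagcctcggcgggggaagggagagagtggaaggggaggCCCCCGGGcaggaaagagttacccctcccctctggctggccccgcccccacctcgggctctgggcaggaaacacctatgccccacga
Gm32633: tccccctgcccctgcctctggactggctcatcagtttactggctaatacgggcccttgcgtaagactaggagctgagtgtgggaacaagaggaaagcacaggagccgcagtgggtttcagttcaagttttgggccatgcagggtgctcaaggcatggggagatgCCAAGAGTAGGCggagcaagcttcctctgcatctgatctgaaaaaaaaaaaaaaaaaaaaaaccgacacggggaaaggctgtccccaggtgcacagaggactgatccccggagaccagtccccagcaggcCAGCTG
Gm40900: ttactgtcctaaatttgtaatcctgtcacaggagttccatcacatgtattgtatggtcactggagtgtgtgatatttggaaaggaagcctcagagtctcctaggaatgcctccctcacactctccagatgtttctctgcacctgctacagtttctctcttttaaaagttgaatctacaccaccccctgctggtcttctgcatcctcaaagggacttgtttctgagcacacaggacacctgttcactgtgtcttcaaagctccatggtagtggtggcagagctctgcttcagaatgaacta

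The Gm14321 window, in the desert between Cebpb and Ptpn1, holds the full EBF1 form TCCCAAGGGA at bases 159 to 168, with a RUNX match before it and an ETS and an E-box match after it, all inside the accessible region. By the authors' peak lists, the fold enrichment of its peak over local background in EBF1-dTAG_N was 12 and 11.7 in the DMSO libraries and 6.73 and 10.4 in the dTAG-13 libraries, and in EBF1-dTAG_C it was 11.5 and 12.5 with DMSO, no peak in the first dTAG-13 library and 7.16 in the second. Each dTAG-13 library was below both DMSO libraries of its line. The median fold enrichment of all gene-desert peaks was also lower with dTAG-13. It went from 8.94 and 8.82 to 8.66 and 8.74 in EBF1-dTAG_C, and from 10.4 and 10.3 to 8.51 and 8.75 in EBF1-dTAG_N. A lower fold enrichment at a region named here or below is thus not by itself particular to that region. The part of depth in these values was not tested. In the authors' deposited tables the fall was 1.53-fold in EBF1-dTAG_N (adjusted p = 0.0199), and in EBF1-dTAG_C a log2 fold change of -1.21 that missed the threshold (adjusted p = 0.0718). The same region also covers the start of Gm32287, a lncRNA gene on the opposite strand, so a change cannot be assigned to one of the starts.

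The Gm5122 window holds 2 overlapping EBF1 cores, at bases 55 to 62 and 56 to 63, and a RUNX match at bases 143 to 148. Its peak had a fold enrichment of 17.9 and 18.8 with DMSO and 5.05 and 4.93 with dTAG-13 in EBF1-dTAG_N, and of 8.48 and 13 against 7.04 and 6.43 in EBF1-dTAG_C. The groups did not overlap in either line, and the authors' deposited table called the fall in EBF1-dTAG_N alone (2.65-fold lower, adjusted p = 1.75e-11, against 1.98-fold lower, adjusted p = 0.157). A neighbouring start, LOC115487176, lies in the same desert beside Uaca and moved the other way in EBF1-dTAG_N: fold enrichments of 7.06 and 8.67 with DMSO and 17.2 and 20.4 with dTAG-13. The authors' deposited table gave it a 2.40-fold rise there (adjusted p = 1.55e-10) and an uncalled log2 fold change of 0.65 in EBF1-dTAG_C (adjusted p = 0.0537).

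Of the gene-desert regions at lncRNA starts, 7 fell and 0 rose in the authors' deposited EBF1-dTAG_C table, and 13 fell and 21 rose in the EBF1-dTAG_N table. Those falls are 7.78% of 90 and 15.1% of 86 regions, near the 6.62% and 18.5% over all regions, and the rises in EBF1-dTAG_N are 24.4% beside 18.8%. All 7 that fell in EBF1-dTAG_C, at the starts of Gm30996, Gm32633, Gm36120, Gm36486, Gm40900, Gm45805 and Gm46264, also fell in EBF1-dTAG_N, and none of their windows held an EBF1 core. Gm40900 and Gm30996 both lie in the immunoglobulin heavy chain (Igh) locus. At Gm32633, near Klf13, the fold enrichment was 8.62 and 9.85 with DMSO and 5.32 and 5.42 with dTAG-13 in EBF1-dTAG_C, and 9.99 and 10.7 against 6.02 and 5.53 in EBF1-dTAG_N. The authors' deposited tables gave falls of 1.68-fold (adjusted p = 0.0299) and 1.93-fold (adjusted p = 1.23e-15). At Gm40900 it was 19.9 and 14.9 with DMSO and 9.02 and 11 with dTAG-13 in EBF1-dTAG_C, and 26.3 and 28.7 against 10.5 and 13.1 in EBF1-dTAG_N. Both starts kept a peak in every library while no dTAG-13 value reached a DMSO value of its line, and the falls at Gm40900 were 2.29-fold (adjusted p = 0.0398) and 3.26-fold by the authors' deposited tables. At Gm26901 the rise in EBF1-dTAG_N was small (1.14-fold, adjusted p = 0.0113, by the authors' deposited table), and its fold enrichments of 23.7 and 19.5 with DMSO and 21.0 and 21.8 with dTAG-13 overlapped. The rise at Gm36223 was likewise small there (1.40-fold, adjusted p = 0.0427, by the authors' deposited table), with fold enrichments of 14.4 and 12.2 against 15.1 and 14.3, and of its 2 EBF1 cores the one at bases 214 to 221 lies inside the accessible region.

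An EBF1 core was in 10.4% of the 115 windows at gene-desert regions and in 13.7% of all 32851 windows of that length. The share was 1.74% against 0.904% for the longer EBF1 form, 31.3% against 16.8% for RUNX, 13% against 3.20% for ETS and 8.70% against 2.43% for CTCF. It was 16.5% against 16.3% for the E-box, 1.74% against 3.44% for IRF, 7.83% against 8.30% for STAT and 4.35% against 3.65% for FOXO. The 115 windows were taken because they overlap an accessible region, while the 32851 were taken whether accessible or not. Accessible windows outside gene deserts were not counted separately, so these differences are not shown to be particular to gene deserts. A match is a run of letters and not a measured binding site, and windows without a match say nothing about the factor.

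Gene-desert regions thinned out with distance. Between the outermost genes of the chromosomes, the EBF1-dTAG_C table held 9.81 regions per Mb of sequence 50 to 100 kb from a gene, 4.79 per Mb at 100 to 300 kb and 3.0 per Mb farther out. The EBF1-dTAG_N table held 10.2, 5.03 and 3.71. They were also fainter than the tables as a whole: the authors' deposited mean abundance had a median log2 CPM of 1.73 over the gene-desert regions and 2.42 over all regions in EBF1-dTAG_C, and of 1.77 and 2.47 in EBF1-dTAG_N. A peak was present in all 4 libraries of the line for 33.2% of gene-desert regions and 44.0% of all regions in EBF1-dTAG_C, and for 35.6% and 46.1% in EBF1-dTAG_N.

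After 6 h of dTAG-13, falls outnumbered rises among the gene-desert regions of EBF1-dTAG_C, and both were frequent in EBF1-dTAG_N. A region is called here where its adjusted p in the authors' deposited edgeR table is under 0.05. In EBF1-dTAG_C, 433 of 5246 gene-desert regions fell (8.25%) and 19 rose (0.362%), beside 6.62% and 0.308% over all regions of the table. In EBF1-dTAG_N, 1310 of 5717 fell (22.9%) and 1044 rose (18.3%), beside 18.5% and 18.8% over all regions. The falls were deep and the rises shallow by the authors' deposited tables. On the log2 scale the median fall was -2.54 in EBF1-dTAG_C and -2.17 in EBF1-dTAG_N, with median rises of 0.80 and 0.92. Among all called regions the median falls were -2.26 and -2.04 and the median rises 0.94 and 0.63. Such medians depend on which regions are called, so they are not set against each other between the lines. With a fold change of at least 2 (1 on the log2 scale) as well, 408 gene-desert regions fell and 7 rose in EBF1-dTAG_C, beside 6.13% and 0.14% over all its regions, and 1098 fell and 458 rose in EBF1-dTAG_N, beside 14.9% and 5.13%. Of the falling regions in EBF1-dTAG_C, 244 (56.4%) had a peak in both DMSO libraries and in neither dTAG-13 library, and in EBF1-dTAG_N 602 (46.0%) did, beside 54.0% and 45.7% of all falling regions.

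The p-values of the tables rest on different degrees of freedom. The deposited F and p of the EBF1-dTAG_C table match 11.2 denominator degrees of freedom, and those of the EBF1-dTAG_N table match 110386, and counts of calls are therefore not set against each other between the lines. The median log2 fold change of all regions was 0.09 in EBF1-dTAG_C and 0.17 in EBF1-dTAG_N. With folds centred on that median, the calls in gene deserts of EBF1-dTAG_N became 1430 falls and 610 rises, so that falls made up 70.1% of calls in place of 55.6%.

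Regions at gene boundaries fell least often, and other regions away from them fell nearly as often as those in gene deserts. Of the regions up to 1 kb from a gene boundary (the start or the end of a protein-coding gene span), a set that holds the promoters, 2.11% fell in EBF1-dTAG_C and 6.89% fell in EBF1-dTAG_N. Regions outside the gene deserts and over 1 kb from a gene boundary fell in 7.75% and 21.3% of cases, close to the 8.25% and 22.9% of the gene-desert regions. Just outside and just inside the 50 kb limit the shares were also near one another: 10.3% of regions at 40 to 50 kb fell and 7.97% at 50 to 60 kb in EBF1-dTAG_C, with 24.9% and 22.4% in EBF1-dTAG_N. No test was made between these sets, which are parts of the same tables.

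Falls became more frequent with abundance inside the gene deserts. Among the gene-desert regions of EBF1-dTAG_C, in the lowest abundance quartile of all regions 2.46% fell, in the middle quartiles 8.44% and 12.3%, and in the highest 18% (106 of 588). Regions outside the gene deserts and over 1 kb from a gene boundary fell in 1.97%, 6.93%, 11.5% and 14.1% of cases in the same quartiles. In EBF1-dTAG_N the gene-desert shares were 14.4%, 21.1%, 31.4% and 35.7%, and those of the other regions 13.4%, 19.3%, 26.9% and 30.4%. The part that the number of reads per region has in this gradient was not tested.

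The share of falling regions did not follow distance in one direction. In EBF1-dTAG_C it was 8.75% at 50 to 100 kb, 7.1% at 100 to 300 kb and 9.14% over 300 kb. The EBF1-dTAG_N shares were 24.3%, 20.6% and 23.9%. The share over 300 kb rested in part on the antigen receptor loci, whose V, D and J gene segments are not protein-coding genes in the annotation. In EBF1-dTAG_C, 49 of 852 regions (5.75%) fell without those in or within 50 kb of a segment, and 61 of 352 (17.3%) fell inside those loci. In EBF1-dTAG_N the same sets had 230 falls among 1077 regions (21.4%) and 124 among 407 (30.5%). The other classes moved by little, to 8.82% and 7.07% for EBF1-dTAG_C and to 24.3% and 20.5% for EBF1-dTAG_N.

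**Figure D1:**
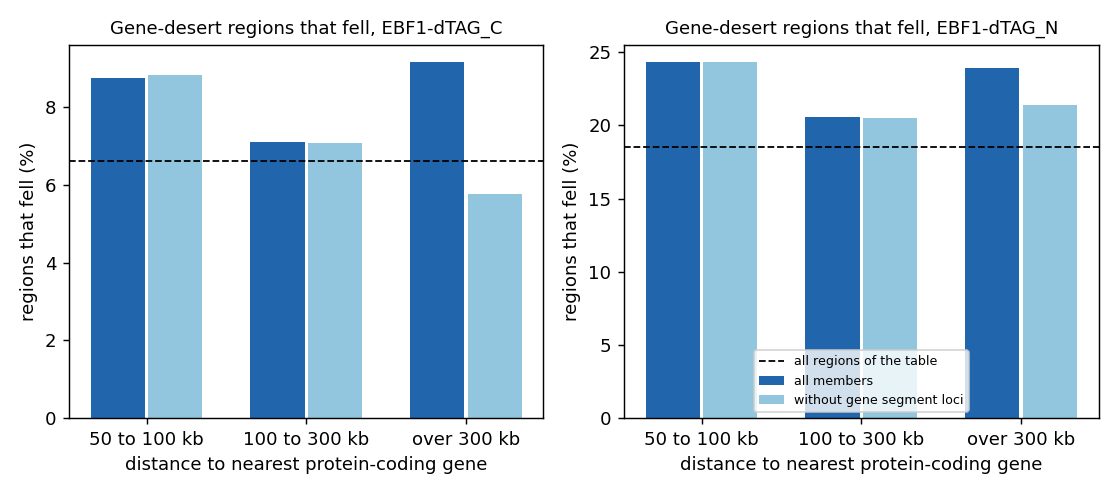
Share of gene-desert regions that fell after dTAG-13 (y axis, percent, adjusted p under 0.05 in the authors' deposited tables) by distance to the nearest protein-coding gene (x axis), for all members and without antigen receptor gene segment loci; the dashed line is the share over all regions of the table, 6.62% and 18.5%. Over 300 kb the share drops from 9.14% to 5.75% in EBF1-dTAG_C and from 23.9% to 21.4% in EBF1-dTAG_N without those loci.

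The immunoglobulin kappa locus (Igk, light chain variable and joining segments; chr6:67555636-70726754) was the gene desert with most regions, 212 in EBF1-dTAG_C and 238 in EBF1-dTAG_N, though some shorter stretches held more per Mb. By the authors' deposited tables, 49 of them (23.1%) fell and 0 rose in EBF1-dTAG_C. In EBF1-dTAG_N 101 (42.4%) fell and 20 (8.40%) rose. Over all regions of those tables the shares were 6.62% falling and 0.308% rising, and 18.5% and 18.8%. All 49 fell in both tables. A region at chr6:69036753-69037190, inside the locus, had a fold enrichment of 20.9 and 26.8 with DMSO and no peak with dTAG-13 in EBF1-dTAG_C, and of 28.8 and 27.8 and again no peak with dTAG-13 in EBF1-dTAG_N. The authors' deposited tables gave it 74.1-fold and 54.0-fold falls. In the Igh locus (chr12:113258768-116009954) 17 of 164 regions (10.4%) fell and 0 rose in EBF1-dTAG_C. In EBF1-dTAG_N 35 of its 184 regions (19.0%) fell, close to the share over all regions, and 26 (14.1%) rose. The T cell receptor alpha locus had 0 of 36 regions called in EBF1-dTAG_C, and 3 falls (5.66%) and 17 rises (32.1%) among 53 in EBF1-dTAG_N. The difference between loci was not tested.

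Counted per library, gene-desert peaks were fewer after dTAG-13 in EBF1-dTAG_C, and the treatments overlapped in EBF1-dTAG_N. EBF1-dTAG_C had 3550 and 3933 with DMSO and 2942 and 2865 with dTAG-13, a fall of the mean from 3742 ± 271 to 2904 ± 54.4 (SD, n = 2), which an exact two-sided permutation test of the libraries gave p = 0.333, the smallest possible for 2 against 2. EBF1-dTAG_N had 3885 and 3706 with DMSO and 3389 and 3821 with dTAG-13 (exact permutation p = 0.667). With labels exchanged within each line, the exact permutation p over both lines was 0.111, and 0.190 after Benjamini-Hochberg adjustment over the 12 measures tested that way. The number of all peaks per library moved as well, from 40440 and 42139 to 34382 and 34202 in EBF1-dTAG_C and from 41613 and 40166 to 35851 and 39721 in EBF1-dTAG_N. The lowest background pileup in the lists, a stand-in for relative depth, fell by 27.8% and 11% on average, and the part of depth in the counts was not tested.

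As a share of each library's peaks, gene deserts held 8.78% and 9.33% with DMSO and 8.56% and 8.38% with dTAG-13 in EBF1-dTAG_C. In EBF1-dTAG_N they held 9.34% and 9.23% with DMSO and 9.45% and 9.62% with dTAG-13. The treatments did not overlap in either line and differed in opposite directions, by -0.59 percentage points in EBF1-dTAG_C and 0.25 in EBF1-dTAG_N. Over both lines the exact permutation p was 0.611. Within the gene-desert stretch of Igk, the peaks numbered 170 and 174 with DMSO and 108 and 114 with dTAG-13 in EBF1-dTAG_C, and 185 and 193 against 134 and 144 in EBF1-dTAG_N. For that count the exact permutation p over both lines was 0.0556, the smallest the 36 arrangements allow, and 0.190 after adjustment over the 12 measures.

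**Figure D2:**
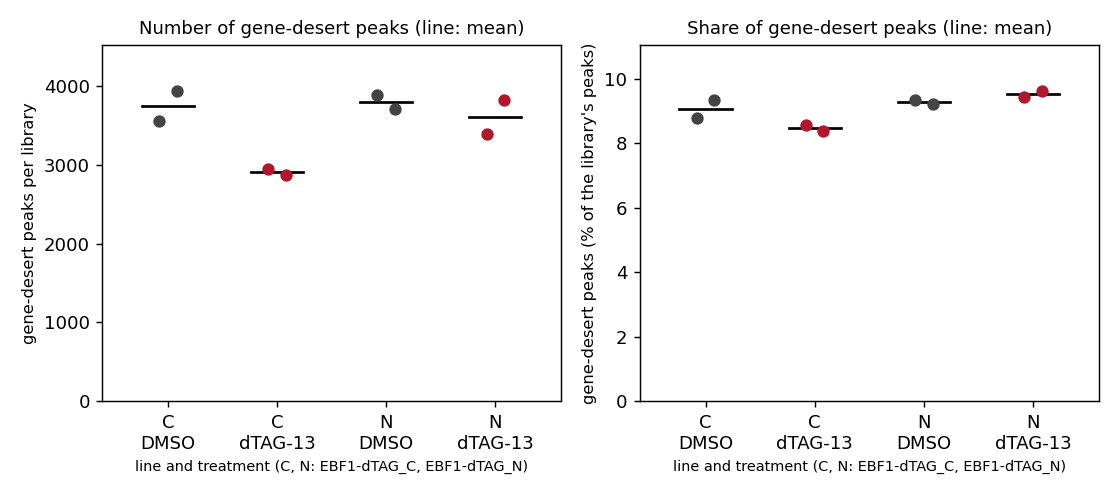
Number of gene-desert peaks in each library (left y axis) and their share of the library's peaks in percent (right y axis), by line and treatment; points are libraries and lines the mean of 2. The number is lower with dTAG-13 in EBF1-dTAG_C (2942 and 2865 against 3550 and 3933) and overlaps between treatments in EBF1-dTAG_N.

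The lines shared most of the falls seen in EBF1-dTAG_C. Overlapping gene-desert regions of the tables formed 3891 pairs, and 405 of the 433 falling regions of EBF1-dTAG_C (93.5%) overlapped one that fell in EBF1-dTAG_N, which is 30.9% of the falls there. Of the 19 rising regions of EBF1-dTAG_C, 17 (89.5%) also rose in EBF1-dTAG_N, which is 1.72% of the rises there. No pair was called in opposite directions, and all 415 pairs with a call of falling in EBF1-dTAG_C had a negative log2 fold change in EBF1-dTAG_N. Across the pairs the log2 fold changes had a Pearson r of 0.84 and a Spearman rho of 0.70, as a description, since regions are not replicates. The lines have separate libraries and separate DMSO controls. The same overlap was not counted over all regions of the tables, so these shares are not shown to be particular to gene deserts. They also depend on the different degrees of freedom behind the calls of the tables.

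**Figure D3:**
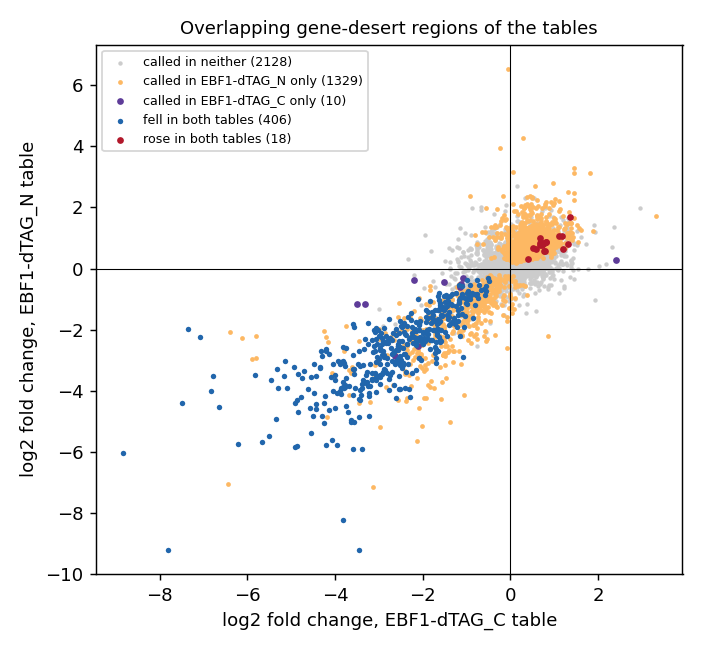
Log2 fold change (dTAG-13 against DMSO, authors' deposited tables) of the 3891 overlapping pairs of gene-desert regions, EBF1-dTAG_C on the x axis and EBF1-dTAG_N on the y axis; colours give the calls and the legend counts pairs. Falls shared by the lines run along the diagonal at the lower left, and no pair is called in opposite directions.

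Falling regions called in both tables were ranked by the larger of their 2 adjusted p-values, and the first 6 lay near Med13l, Lemd2, Qrsl1, Cited2, Ankrd34c and Foxo1, between 51.4 and 933 kb from the gene. They are also the 6 falls of smallest adjusted p in EBF1-dTAG_C, and those near Med13l, Lemd2 and Qrsl1 are among the 6 smallest in EBF1-dTAG_N. A region at chr5:118494657-118495660, between Spring1 and Med13l, a Mediator kinase module gene, and 65.2 kb from the latter, had fold enrichments of 16.7 and 16.3 with DMSO and 7.94 and 9.95 with dTAG-13 in EBF1-dTAG_C. The values in EBF1-dTAG_N were 17.6 and 16.1 with DMSO and 8.26 and 8.05 with dTAG-13. Both dTAG-13 libraries of each line were below both DMSO libraries, yet each still had a peak. The authors' deposited tables gave falls of 8.52-fold (adjusted p = 1.27e-07) in EBF1-dTAG_C and 6.46-fold in EBF1-dTAG_N.

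A region at chr17:27258530-27259546, 53.6 kb from Lemd2, a nuclear envelope protein gene, went from fold enrichments of 22.3 and 20.6 to 5.62 and 7.61 in EBF1-dTAG_C and from 21.0 and 21.5 to 9.55 and 9.80 in EBF1-dTAG_N. Here too a peak persisted in every dTAG-13 library. The authors' deposited tables gave falls of 7.83-fold (adjusted p = 1.09e-06) and 8.81-fold. A region at chr10:43745900-43746907 lies inside the lncRNA gene 1700027J07Rik, in the desert between Cd24a, the heat-stable antigen of early B cells, and Qrsl1. Its fold enrichment was 22.7 and 18 with DMSO and 6.79 and 7.01 with dTAG-13 in EBF1-dTAG_C, and 18.2 and 19.9 against 8.08 and 9.44 in EBF1-dTAG_N. The authors' deposited tables gave falls of 8.41-fold (adjusted p = 1.18e-06) and 4.95-fold.

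Outside the immunoglobulin loci, the falling region over 300 kb with the smallest adjusted p lay at chr10:16789684-16790158, 933 kb from Cited2, a transcriptional co-regulator gene. Its fold enrichment was 29.1 and 30.7 with DMSO, 6.51 in the first dTAG-13 library and without a peak in the second in EBF1-dTAG_C, and 30.5 and 28.7 against 8.90 and 8.02 in EBF1-dTAG_N. The fall was 27.0-fold in the authors' deposited EBF1-dTAG_C table (adjusted p = 3.07e-06) and 12-fold in that of EBF1-dTAG_N. The desert between Nmbr and Cited2 in which it lies had 60 regions in EBF1-dTAG_C. Of these, 2 (3.33%) fell and 1 (1.67%) rose, so the region stood among uncalled neighbours. In EBF1-dTAG_N 11 of the desert's 72 regions (15.3%) fell and 9 (12.5%) rose. Over all regions the falls were 6.62% and 18.5% and the rises 0.308% and 18.8%, in that order of lines.

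Near Rorb, a nuclear receptor gene of the nervous system, a region inside the lncRNA gene Gm50212 at chr19:19261658-19262226 had fold enrichments of 27.9 and 24.0 with DMSO and no peak with dTAG-13 in EBF1-dTAG_N, a fall that the authors' deposited table put at 44.2-fold (adjusted p = 4.17e-253). A region 51.4 kb from Ankrd34c at chr9:89789915-89790323 had fold enrichments of 25.3 and 25.5 with DMSO and no peak with dTAG-13 in EBF1-dTAG_C, a 27.2-fold fall in the authors' deposited table (adjusted p = 3.68e-06). In EBF1-dTAG_N it went from 26.9 and 27.9 to no peak and 4.37, which the authors' deposited table gives as an 18.3-fold fall. These regions, unlike those near Med13l and Lemd2, lost their peak in all or all but one of the dTAG-13 libraries named.

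Rises called in both lines were few and modest. The smallest adjusted p belonged to a region 93.3 kb from Id2, which encodes an inhibitor of E proteins and is kept low in committed B cells, at chr12:25189128-25189631 inside the lncRNA gene Gm36287. Its fold enrichment was 11.2 and 9.94 with DMSO and 12.9 and 13.4 with dTAG-13 in EBF1-dTAG_C, and 7.70 and 8.31 against 12.2 and 12.3 in EBF1-dTAG_N. The groups did not overlap in either line, and the authors' deposited tables gave rises of 1.59-fold (adjusted p = 0.00706) and 1.99-fold (adjusted p = 2.54e-31). In EBF1-dTAG_N a region about the same distance from Id2 (95.2 kb) fell 5.30-fold in the authors' deposited table, with a peak in 1 DMSO library alone.

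A region 64.1 kb from Aff3, a lymphoid nuclear factor gene, rose 1.77-fold (adjusted p = 0.00827) and 1.81-fold in the authors' deposited tables, although its fold enrichments overlapped between treatments: 21.4 and 18.1 with DMSO and 21.3 and 24.2 with dTAG-13 in EBF1-dTAG_C. A region 52.5 kb from Sp3, a widely expressed zinc finger factor gene, had no DMSO peak and fold enrichments of 11.4 and 13 with dTAG-13 in EBF1-dTAG_C, a 2.58-fold rise in the authors' deposited table (adjusted p = 0.0155). In EBF1-dTAG_N it had no peak and 6.43 with DMSO and 11.5 and 9.84 with dTAG-13, a 3.20-fold rise by the authors' deposited table. Regions near Glrp1, Cyria and Tecrl also rose in both lines, by 1.61-fold, 1.74-fold and 1.66-fold in the authors' deposited EBF1-dTAG_C table and by 1.77-fold, 1.5-fold and 1.71-fold in that of EBF1-dTAG_N. The one rise over 300 kb in EBF1-dTAG_C lay 365 kb from Atp23 and was 1.42-fold by the authors' deposited table (adjusted p = 0.0292), with fold enrichments of 20.7 and 21.7 against 22.9 and 17.7 that overlapped.

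Larger rises were called in EBF1-dTAG_N. A region 78.8 kb from Cd93, a surface receptor gene of early B and myeloid cells, at chr2:148522089-148522520 had no DMSO peak and fold enrichments of 15.9 and 15.3 with dTAG-13, an 8.73-fold rise in the authors' deposited table (adjusted p = 4.00e-28). A region 64.8 kb from Rbpj, the DNA-binding partner of Notch, rose 1.97-fold in the authors' deposited table, with fold enrichments of 24.7 and 26.5 against 26.4 and 29.3 that overlapped. In the T cell receptor gamma locus a region 57.0 kb from Stard3nl rose 2.84-fold in the authors' deposited table, from fold enrichments of 8.96 and 9.78 to 8.82 and 14.4, which also overlap. At over 100 kb the rises of smallest adjusted p lay near Inhba, Gm38821, Lipo4, Adgrl2, Atp23 and Agtr1b, between 163 and 459 kb from the gene, and ranged from 1.61-fold to 2.78-fold by the authors' deposited table. A further 2 regions were among the 6 falls of smallest adjusted p in EBF1-dTAG_N. The region 90.1 kb from 1700018B08Rik went from fold enrichments of 21.4 and 19.2 to 7.27 and 14 and fell 8.63-fold, and that 131 kb from Opcml from 30.2 and 31.9 to 8.61 and 14.3 and fell 7.92-fold, by the authors' deposited table.

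In EBF1-dTAG_C the 5 stretches between protein-coding genes with most regions were that of the Igk locus, Adam6a to Zfp386 (Igh), Nmbr to Cited2, Myc to Gsdmc and Runx1 to Setd4. In EBF1-dTAG_N the first 4 were the same and the fifth was Gm36448 to Dad1, which holds the T cell receptor alpha and delta segments. Regions were spread thinly elsewhere: 479 of the 1247 stretches in EBF1-dTAG_C held 1 region, 251 held a falling region and 30 held 3 or more.

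**Figure D4:**
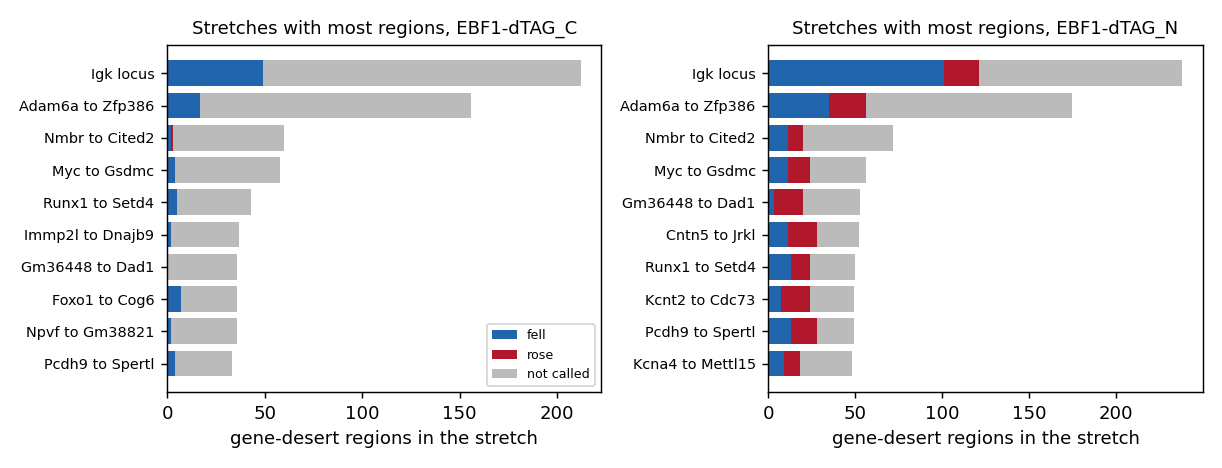
Gene-desert regions that fell, rose or were not called (x axis, number of regions, authors' deposited tables) in the 10 stretches between protein-coding genes with most regions in each table (y axis, named by the flanking genes or, for Igk, by the locus). The Igk stretch has 49 falls among 212 regions in EBF1-dTAG_C and 101 among 238 in EBF1-dTAG_N.

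Beyond Foxo1, a forkhead factor required in early B cells, the stretch to Cog6 held 36 regions in EBF1-dTAG_C and 44 in EBF1-dTAG_N. In EBF1-dTAG_C 7 (19.4%) fell and 0 rose, and in EBF1-dTAG_N 12 (27.3%) fell and 9 (20.5%) rose. Over all regions 6.62% fell in EBF1-dTAG_C, and 18.5% fell and 18.8% rose in EBF1-dTAG_N. The falls of this stretch lay between 50.4 and 576.6 kb from the Foxo1 span in both tables. At chr3:52638811-52639264, 289 kb from Foxo1, the fold enrichment was 24.3 and 21.0 with DMSO and 4.61 and 6.35 with dTAG-13 in EBF1-dTAG_C, and 26.1 and 24.7 against 8.6 and 11.4 in EBF1-dTAG_N. The authors' deposited tables gave falls of 7.42-fold (adjusted p = 3.99e-06) and 3.88-fold (adjusted p = 1.02e-85). Among its neighbours is a region 94.0 kb from Foxo1, the second most abundant of all gene-desert regions in EBF1-dTAG_C and the most abundant in EBF1-dTAG_N, which had fold enrichments of 28.2 and 26.0 against 26.5 and 28.6, and 23.1 and 22.3 against 24.0 and 24.7. It was not called in either of the authors' deposited tables (log2 fold changes of -0.11 and -0.05).

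Between Runx1, a core factor of blood cell development, and Setd4, 5 of 43 regions (11.6%) fell and 0 rose in EBF1-dTAG_C. In EBF1-dTAG_N 13 of 50 (26%) fell and 11 (22%) rose. The shares over all regions were 6.62% falling in EBF1-dTAG_C, and 18.5% falling and 18.8% rising in EBF1-dTAG_N. A region 314 kb from Runx1 at chr16:93139374-93139941 had fold enrichments of 22.4 and 21.3 with DMSO, no peak in the first dTAG-13 library and 7.51 in the second in EBF1-dTAG_C, a 7.05-fold fall in the authors' deposited table (adjusted p = 4.57e-05). In EBF1-dTAG_N the falling region of smallest adjusted p was another one, 95.9 kb from Runx1. It had fold enrichments of 21.3 and 19.7 against no peak and 5.41 and a 9.46-fold fall in the authors' deposited table. Both regions were called as falling in both tables. The log2 fold change at 95.9 kb was -4.35 in EBF1-dTAG_C, and that at 314 kb was -2.38 in EBF1-dTAG_N.

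Downstream of Myc, the proliferation factor gene, 4 of 58 regions (6.9%) fell and 0 rose in EBF1-dTAG_C, near the 6.62% over all regions. All 4 lay over 700 kb from Myc, the nearest at 708.4 kb and the farthest at 1667.9 kb. In EBF1-dTAG_N 11 of 56 (19.6%) fell and 13 (23.2%) rose, beside 18.5% and 18.8% over all regions. The region at chr15:62698583-62698948 went from fold enrichments of 17.2 and 18.7 to no peak in EBF1-dTAG_C and from 22.2 and 21.3 to no peak and 4.83 in EBF1-dTAG_N, falls of 4.99-fold (adjusted p = 0.00147) and 4.93-fold in the authors' deposited tables. At the far end, 139 kb from Gsdmc at chr15:63636423-63637105, the fold enrichment was 17.9 and 15.6 with DMSO in EBF1-dTAG_C and there was no peak with dTAG-13, a 15.2-fold fall in the authors' deposited table (adjusted p = 4.38e-06).

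Between Cebpb, a myeloid factor gene, and Ptpn1, a stretch named here after its values were seen, 4 of 13 regions of EBF1-dTAG_C fell, as did 8 of 11 of EBF1-dTAG_N, with 0 rises in either. All 11 regions of EBF1-dTAG_N had a log2 fold change below 0, against 8 of 13 in EBF1-dTAG_C. The start of Gm14321, shown above, is one of them. Other stretches with a high share of falls, also named after their values were seen, were Rad51b to Zfp36l1 (5 of 13 regions of EBF1-dTAG_C, 8 of 13 of EBF1-dTAG_N), Bcl6 to Lpp (9 of 19 in EBF1-dTAG_N) and Nxnl2 to S1pr3 (7 of 9 in EBF1-dTAG_N). Over all regions of the tables, 6.62% fell in EBF1-dTAG_C and 18.5% in EBF1-dTAG_N.

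**Figure D5:**
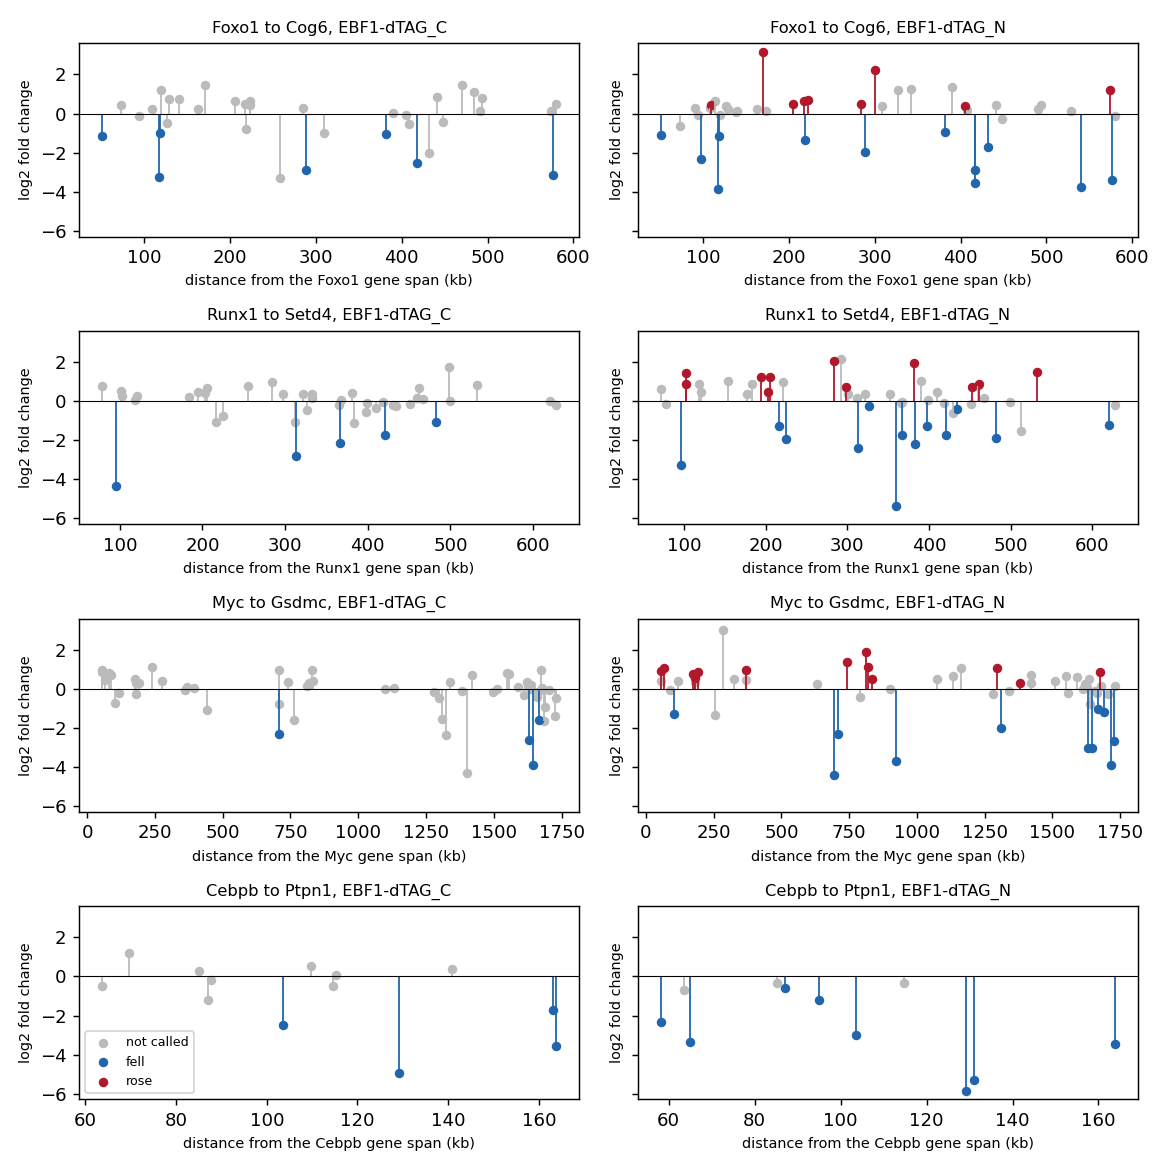
Log2 fold change (y axis, dTAG-13 against DMSO, authors' deposited tables) of each gene-desert region in 4 stretches against its distance from the gene named first (x axis, kb), EBF1-dTAG_C on the left and EBF1-dTAG_N on the right; colours give the call. In the first 3 stretches falling regions stand among uncalled ones and, in EBF1-dTAG_N, also among 9, 11 and 13 rising ones. In Cebpb to Ptpn1 all 11 regions of EBF1-dTAG_N lie below 0.

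Lists of regulator genes were read through the protein-coding gene nearest to each gene-desert region, which need not be the gene a region acts on. Of 30 B lineage factor genes, 18 were nearest to a gene-desert region in each table. Their 200 regions in EBF1-dTAG_C had 11 falls and 1 rise, and their 191 in EBF1-dTAG_N had 37 falls (19.4%) and 45 rises, beside 8.25% and 22.9% of falls over all gene-desert regions. Foxo1 had 4 falls among 24 regions in EBF1-dTAG_C, Runx1 3 among 24, and Ets1, Lef1, Myc and Mycn 1 each, whereas the 23 regions of Mef2c and the 7 of Ebf1 had none. In EBF1-dTAG_N Mef2c had 5 falls and 4 rises among 16 regions and Ebf1 1 rise among 7. Near Lef1, a Wnt pathway factor active in pro-B cells, a region 55.7 kb away went from fold enrichments of 8.17 and 8.07 to no peak in EBF1-dTAG_C and from 12.3 and 10.9 to no peak in EBF1-dTAG_N. The authors' deposited tables gave falls of 8.19-fold (adjusted p = 3.60e-05) and 7.50-fold. Near Ets1, an ETS factor of lymphocytes, a region 594 kb away went from 9.27 and 12.1 to no peak in EBF1-dTAG_C and from 11.2 and 9.99 to no peak in EBF1-dTAG_N, 7.47-fold (adjusted p = 0.00295) and 5.22-fold falls by the authors' deposited tables. Near Mycn, a Myc paralog, a region 132 kb away went from 8.18 and 9.56 to no peak and from 22.9 and 18.5 to no peak, falls of 23.2-fold (adjusted p = 0.00513) and 11.6-fold in the authors' deposited tables. Both lost their peak in every dTAG-13 library.

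Of 22 B lineage target genes, 2 were nearest to a gene-desert region in EBF1-dTAG_C (18 regions, 1 fall and 0 rises) and 3 in EBF1-dTAG_N (21 regions, 4 falls and 6 rises). Genes of T and innate cells had 35 regions with 1 fall and 1 rise in EBF1-dTAG_C and 34 with 5 falls and 10 rises in EBF1-dTAG_N, and 7 of those 10 were at Id2, which both this list and the B lineage factors hold. Myeloid genes had 17 regions with 1 fall and 0 rises and 19 with 7 falls and 1 rise, 5 of the 7 at Cebpb, so that 36.8% fell in EBF1-dTAG_N. Stem and progenitor genes had 7 regions with no call in EBF1-dTAG_C and 5 with 2 rises in EBF1-dTAG_N. The list of developmental factors outside blood also holds Prdm1, the plasma cell factor gene. It had 41 regions with 4 falls and 0 rises in EBF1-dTAG_C and 54 with 12 falls and 9 rises in EBF1-dTAG_N. Falls were thus 5.56% and 19.0% of the regions of B lineage targets, 2.86% and 14.7% of those of T and innate genes, and 9.76% and 22.2% of those of developmental factors, in that order of lines. Over all regions the tables had 6.62% and 18.5% of falls and 0.308% and 18.8% of rises, and most lists lay near those shares. Among the developmental factors in EBF1-dTAG_N, 5 of 10 regions near Prdm1, which is also the plasma cell factor gene, fell and 0 rose.

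The region farthest from a protein-coding gene was not called in either table. It lies at chr1:102628132-102628397, 2140 kb from Cntnap5b, and had fold enrichments of 53.5 and 52.3 with DMSO and 48.1 and 50.5 with dTAG-13 in EBF1-dTAG_C, and of 51.4 and 45.7 against 47.1 and 49.4 in EBF1-dTAG_N. These values ranked 2 in each of the 8 peak lists, and in EBF1-dTAG_N the treatments overlapped, while in EBF1-dTAG_C both dTAG-13 libraries were lower. The authors' deposited tables gave log2 fold changes of -0.07 (adjusted p = 0.913) and 0.28 (adjusted p = 0.104). The most abundant region of EBF1-dTAG_C, near Lrrc74a, was not called there by the authors' deposited table (1.26-fold higher, adjusted p = 0.0546) and rose 1.46-fold in that of EBF1-dTAG_N. The next most abundant in EBF1-dTAG_N after the one near Foxo1, near Dyrk2 and the kinase gene Pim1, were called as falling 1.23-fold and 1.47-fold by the authors' deposited table.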

How the data were processed

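ATAC-seq was measured in 8 libraries of 50000 cells each, per the labels' protocols. Per the submitters' processing notes the build was GRCm38 (mm10) and the tools included edgeR 3.32.0, MACS2 2.2.7.1, deepTools 3.3.2, SAMtools 1.10 and Bowtie2 2.3.5.1, whose settings were not given in the sources used here. Per the file headers, each line's deposited table holds log2 fold changes, mean log2 CPM, F scores, p-values and adjusted p-values per region, with no library's own values, so no SD or n is given for them. The deposited peak lists give each library's peaks with a fold ratio over background, a pileup signal and −log10 p- and q-values; these fold enrichments are the authors' and serve as description.

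Repeated entries (8 and 12) were counted once. Distances run from region centres to RefSeq GRCm38 spans with pandas 2.3.3 and SciPy 1.17.1, and a gene boundary is either end of a span. Regions of different tables or lists were joined by at least 1 shared base. Regions named are the 6 smallest adjusted p per table and direction, 3 per class beyond 100 kb, the farthest 3, the most abundant 3, 6 called in both tables per direction, 5 stretches per table and, for listed genes, the smallest adjusted p per direction; only some of these are described, and results on some genes are not reported here. Members, lists, motifs and comparisons were chosen with earlier results of these data known; the set of regions over 1 kb from a gene boundary, the 6 printed windows and the counts without segment loci were chosen here after seeing the data. Adjusted p-values are the deposited ones over each whole table. Library counts were compared by exact two-sided permutation; with 2 libraries per group p cannot go below 0.333 within a line or 0.0556 over both. P-values cover only the spread between these libraries. The scripts were tested on simulated data. Depth per library is not given in the sources used here; no genome was used, so motifs were searched in start windows alone. No per-sample column was left unused (0).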

Additional observations from a re-analysis of the deposited data

Results flagged for a closer look

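The share of a library's peaks lying in gene deserts changed in opposite directions in the lines. It went from 8.78% and 9.33% to 8.56% and 8.38% in EBF1-dTAG_C and from 9.34% and 9.23% to 9.45% and 9.62% in EBF1-dTAG_N, so both libraries of each dTAG-13 group lay on the same side of their controls. The difference between the changes was -0.844 percentage points (EBF1-dTAG_C minus EBF1-dTAG_N), with an exact permutation p of 0.0556, the smallest that the 36 arrangements allow. Treatment labels were exchanged within each line, so this p refers to no effect in either line and not to equal effects. Such a difference was computed for every measure, and its p was not adjusted. Among peaks with −log10 q of at least 5 the difference was -0.0640 points (exact permutation p = 0.889), and with the same number of best peaks taken from each list it was -0.130 points (p = 0.722, exact permutation).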

How the results depend on the processing

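Among gene-desert falls in EBF1-dTAG_C, 433 became 277 at adjusted p under 0.01, 258 at or above the table's median abundance and 88 over 50 kb from every gene; its 19 rises became 2 at 0.01, 7 at 2-fold or more, 9 with centred folds and 5 over 50 kb from every gene. In EBF1-dTAG_N, 1310 falls became 671 at or above median abundance and 300 over 50 kb from every gene, and 1044 rises became 644 at 0.01, 458 at 2-fold or more, 610 with centred folds, 588 at or above median abundance, 280 over 50 kb from every gene and 688 with F read against the EBF1-dTAG_C degrees of freedom. These alternatives test fewer regions, ask for more or move the centre. In EBF1-dTAG_C, falls were 14.2% of the gene-desert regions at or above median abundance and 6.76% of those over 50 kb from every gene. In EBF1-dTAG_N they were 32.9% and 20.2%. Over all regions of the tables, at any abundance, 6.62% and 18.5% fell. At or above median abundance, the EBF1-dTAG_C shares that fell by class were 14.9%, 12.2% and 15.9%, those of EBF1-dTAG_N 33.9%, 29.9% and 35.7%; without segment loci the shares over 300 kb were 5.75% and 21.4%.

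With the best peaks of each list taken in equal number, the changes in gene-desert peaks turned to 34.5 in EBF1-dTAG_C, 79.0 in EBF1-dTAG_N and 56.75 over both, and that of their share to 0.166 points. Over 50 kb from every gene, EBF1-dTAG_N changed by 26.5 peaks and the share by 0.0183 points. The cause was not tested. Leaving out one library, the change in peak number ranged from -1029.5 to -646.5 in EBF1-dTAG_C, from -406.5 to 25.5 in EBF1-dTAG_N (reversed without dTAG-13 replicate 1), and from -622.25 to -406.25 over both; that of the share ranged from -0.306 to -0.0284 points.

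With the replicate block the change over both lines stayed at -514.25 peaks (exact permutation p = 0.250). Labels do not say that numbers pair libraries, and peak names inside the lists carry other numbers. Deviations of same-numbered libraries correlated at -0.16 in EBF1-dTAG_C and -0.03 in EBF1-dTAG_N. Crossing the numbers in EBF1-dTAG_C left its change at -838 gene-desert peaks (exact permutation p = 0.5), as did the block. No region was tested again with a block. Every other alternative run kept its direction and its side of the threshold. Motifs inside the regions were not searched, because no genome was used.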
